A study of Homo sapiens with 6 samples.

Results

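Class I antigen presentation was followed through 9 genes that make, load and feed the class I molecule: the heavy chains HLA-B, HLA-C and HLA-E, the light chain B2M, the transporter subunits TAP1 and TAP2, the loading factor TAPBP, and the immunoproteasome subunits PSMB8 and PSMB9. They were taken by name, as the rows whose Ensembl identifier carries one of these symbols in GENCODE 29. All 9 were found among the 58381 gene identifiers of the deposited table, and all 9 passed the limit of a mean of 10 normalized counts that left 16047 genes for testing. RNA came from MCF10AT1, a line derived from the breast epithelial line MCF10A by activated HRAS and passage as a xenograft. Cells of that 1 line, grown in one medium with horse serum, insulin, EGF, cholera toxin and hydrocortisone, were sorted by antibodies to the surface proteins CD24 and CD44. The CD24low, CD44high fraction gave 3 libraries and the CD24high, CD44-positive fraction gave 3, with no other treatment, and the column names of the table call these fractions CSC and Bulk. Going by the series title, on RUNX control of stem cells in breast cancer, the question is what sets the stem-like fraction apart.

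Class I molecules display peptides from inside the cell to CD8 T cells and to natural killer cells. Proteasomes cut proteins into peptides, the TAP transporter carries these into the endoplasmic reticulum, tapasin (TAPBP) holds TAP beside an empty class I molecule, and a heavy chain paired with beta-2 microglobulin (B2M) takes a peptide to the surface. Interferon gamma raises most of these genes, and the immunoproteasome subunits then replace their constitutive counterparts in newly built proteasomes. Loss of B2M, TAP or tapasin lowers surface class I, which is a known route of immune escape in carcinoma.

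None of the 9 genes passed the test between CD24low and CD24high cells. Differences, given as CD24low minus CD24high in units of log2 (normalized count + 1), ran from -0.22 for TAP2 to 0.44 for PSMB9, with a median of 0.07. The median over all 16047 tested genes was -0.01. With limma and Benjamini-Hochberg adjustment over all tested genes, 0 of the 9 passed 0.05, and 0 of the 9 had an unadjusted p below 0.05. The same fit called 0 of 16047 genes, which is 0% of those tested, while 13.5% had an unadjusted p below 0.05. DESeq2 on recovered reads called 2.51% of the 16045 genes it gave an adjusted p, and edgeR called 0%; each called 0 of the 9. For 8 of the 9 genes the 95% interval of the difference lay wholly inside a 2-fold change either way, and for PSMB9 it reached 2.05-fold higher. The labels do not say that replicates came from separate cultures, so intervals and p-values rest on variation among libraries that may be no more than technical. A change in the share of cells that express a gene and a change in RNA per cell cannot be told apart in such bulk libraries.

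The stretches printed here are parts of the promoters in which known class I control motifs were found, to show what the members share in sequence. Matches in a second window of TAP1 and of PSMB8 are described but not printed. They lie within 250 bases before the start site, are from RefSeq on GRCh38.p14 and read 5′ to 3′ on the strand of the gene. Capitals mark an NF-kappaB match (GGGNNTTCC, or the same with 1 more N in the middle), an interferon-stimulated response element core (GAANNGAAA), or an X2 box (TGACG) followed by a Y box (ATTGG) on the same strand with 15 to 25 bases between them, all searched on both strands.
HLA-B, chr6:31357250-31357362, minus strand: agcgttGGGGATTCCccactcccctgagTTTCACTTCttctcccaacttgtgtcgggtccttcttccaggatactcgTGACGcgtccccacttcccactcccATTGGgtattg
HLA-C, chr6:31272162-31272249, minus strand: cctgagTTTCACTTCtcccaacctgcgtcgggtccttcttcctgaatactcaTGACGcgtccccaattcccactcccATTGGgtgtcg
B2M, chr15:44711386-44711478, plus strand: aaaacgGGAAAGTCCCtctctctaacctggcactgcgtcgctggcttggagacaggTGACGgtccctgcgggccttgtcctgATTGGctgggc
TAP1, chr6:32853761-32853782, minus strand: gttcctGGGACTTTCCgagagc
TAPBP, chr6:33314119-33314140, minus strand: cagagcGGGGATTTCCaccgcc
TAP2, chr6:32838788-32838808, minus strand: gctgggGAAGCGAAAgcgaaa

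Of the 9 genes, 8 matched a promoter in the RefSeq table. HLA-E had no window there and was not searched, and the window of PSMB9 held no match to any of these motifs. The X2 and Y boxes are only part of the platform on which NLRC5 and the RFX and NFY factors act. The X1 box, which RFX binds, was not searched. The X2 and Y pair was found in HLA-B, HLA-C and B2M, and in 0.407% of all 35116 promoter windows. It starts 106, 105 and 75 bases before the start site in these genes, respectively. The response element core was found in HLA-B, HLA-C and TAP2, and in 6.56% of all windows. An NF-kappaB match was found in HLA-B, B2M, TAP1, TAPBP and a second PSMB8 window, and in 9.61% of all windows; the TAPBP matches, 2 in number, overlap each other. A GAS element (TTCNNNGAA) was found in the second windows of TAP1 and PSMB8 and in 6.57% of all windows. TAP1 and PSMB9 lie head to head, with 488 bases between the nearer TAP1 start site and that of PSMB9. These are matches of letters in the reference genome, and no binding was measured.

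Among the heavy chain genes HLA-B and HLA-C had overlapping groups and HLA-E did not. HLA-B (ENSG00000234745.10, chromosome 6, 31269491 to 31357188, minus strand, hg38) presents peptides to CD8 T cells. It had 415, 415 and 395 normalized counts in the CD24high libraries, here and after in the order of replicates 1, 2 and 3, against 338, 522 and 412 in the CD24low libraries. The CD24low libraries took in both the lowest and the highest of the 6 values, so the groups overlapped. The difference was 0.03 (SE 0.16, 95% interval -0.33 to 0.40, limma adjusted p = 0.95), and -0.13 without CD24low replicate 2.

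HLA-C (ENSG00000204525.16, chromosome 6, 31268749 to 31272130, minus strand) is both a presenter to T cells and the main ligand of killer cell immunoglobulin-like receptors. Its CD24high libraries had 2096, 2174 and 2050 normalized counts and its CD24low libraries 1976, 2323 and 2298. The groups overlapped, with CD24low replicate 1 the lowest library and CD24low replicates 2 and 3 above all CD24high libraries. The difference of 0.06 (SE 0.11, 95% interval -0.18 to 0.30) corresponds to 1.04-fold, with an interval of 0.88-fold to 1.23-fold (limma adjusted p = 0.85).

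HLA-E (ENSG00000204592.8, chromosome 6, 30489467 to 30494205, plus strand) carries leader peptides of other class I chains and is read by the NKG2A receptor of natural killer cells. The CD24high libraries were nearly equal, at 1393, 1369 and 1369 normalized counts, and the CD24low libraries had 1422, 1877 and 1486. All CD24low values lay above all CD24high values, yet CD24low replicate 1 exceeded the nearest CD24high library by little. Its difference was 0.20 (SE 0.12, 95% interval -0.08 to 0.48, limma adjusted p = 0.52). Without CD24low replicate 2 it was 0.08 (95% interval -0.17 to 0.33).

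Reads of the heavy chains can be shared between genes, which bears on all 3. The GENCODE 29 model of HLA-B runs on into HLA-C and shares 35 exon bases with it. Of the stretches of 50 bases in the protein-coding transcripts, 2.12% for HLA-B, 6.17% for HLA-C and 5.13% for HLA-E occur unchanged in transcripts of another gene. The longest run common to the coding sequences of HLA-B and HLA-C has 66 bases and lies in exon 3 of each, at chr6:31356301-31356366 and chr6:31271207-31271272 on hg38, and is shown because a read inside it has no unique origin.
Common run: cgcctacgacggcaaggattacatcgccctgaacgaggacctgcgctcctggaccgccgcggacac
These figures use the reference sequence; the class I alleles of the cell line were not analysed here, and the effect of mismatches between them and the reference on the counts was not tested.

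B2M (ENSG00000166710.17, chromosome 15, 44711487 to 44718877, plus strand), the light chain that every class I molecule needs, had a difference close to 0. It had 4672, 4067 and 4100 normalized counts in the CD24high and 3854, 4542 and 4170 in the CD24low libraries. The highest value was CD24high replicate 1 and the lowest CD24low replicate 1, with the others between them. The difference was -0.03 (SE 0.11, limma adjusted p = 0.93), and its 95% interval ran from 0.82-fold to 1.16-fold.

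**Figure D1:**
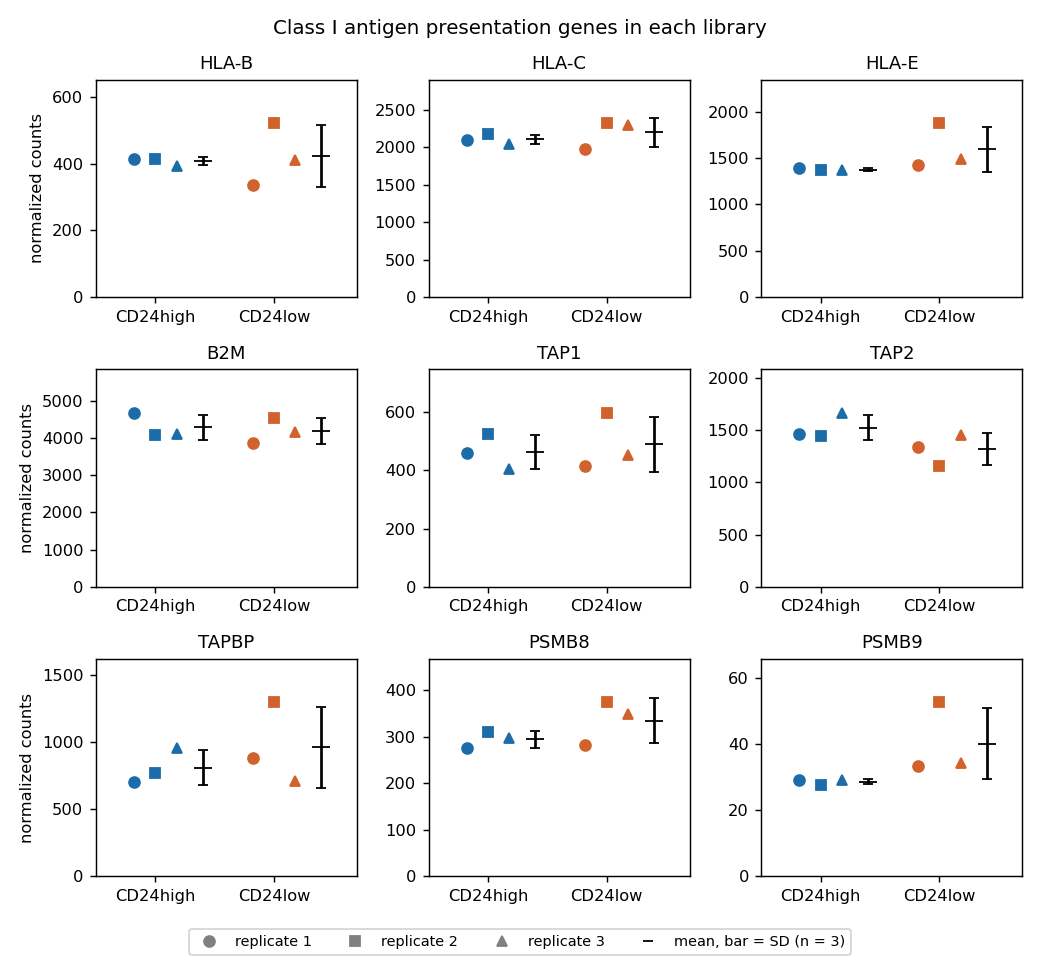
Normalized counts (vertical axis, from 0) of each of the 9 genes in the 3 CD24high (blue) and 3 CD24low (orange) libraries; marker shapes give the replicate number and black bars the mean and SD. CD24low replicate 2, the orange square, is the highest of the 6 libraries in 7 panels and the lowest in the panel of TAP2, and the groups fail to overlap for HLA-E and PSMB9.

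The peptide transporter genes had differences of opposite sign, and neither passed the test. TAP1 (ENSG00000168394.11, chromosome 6, 32845209 to 32853978, minus strand) encodes one half-transporter. It had 461, 525 and 405 normalized counts in the CD24high and 416, 598 and 454 in the CD24low libraries, so that each group spanned much of the range of the other. The difference was 0.07 (SE 0.17, 95% interval -0.30 to 0.44, limma adjusted p = 0.89). Without CD24low replicate 2 it was -0.08, of the same sign as TAP2.

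TAP2 (ENSG00000204267.13, chromosome 6, 32821833 to 32838780, minus strand), the partner subunit, had 1461, 1448 and 1666 normalized counts in the CD24high and 1337, 1154 and 1457 in the CD24low libraries. CD24low replicates 1 and 2 lay below all CD24high libraries, and CD24low replicate 3 fell among them. Its difference of -0.22 (SE 0.12, 95% interval -0.49 to 0.06, limma adjusted p = 0.47) was the most negative of the 9. It was -0.13 without CD24low replicate 2. It was 0.0017 among the libraries with little rRNA and -0.42 among those with much of it, a split described further on. The read-through gene AL669918.1 covers 32.3% of the exon bases of TAP2 on the same strand. That gene was counted at 932, 1015 and 1179 in the CD24high and 975, 832 and 1034 in the CD24low libraries, with CD24high replicate 3 highest and CD24low replicate 2 lowest as for TAP2. How the counting divided reads between these genes is not given in the sources used here, so the level of TAP2 is uncertain.

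TAPBP (ENSG00000231925.11, chromosome 6, 33299694 to 33314387, minus strand), which encodes tapasin, varied most among libraries of a group. It had 705, 766 and 954 normalized counts in the CD24high and 880, 1293 and 710 in the CD24low libraries. The coefficient of variation was 16.1% over the CD24high and 31.2% over the CD24low libraries, the largest of the 9 in each fraction. The difference of 0.22 (SE 0.21, 95% interval -0.25 to 0.68, limma adjusted p = 0.69) was -0.02 without CD24low replicate 2, and ran up to 0.41 with another library left out. With the split of libraries at an rRNA share of 5% as a covariate it was 0.06.

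The immunoproteasome genes had the most positive median of the 4 roles, 0.31, and neither passed the test. Without CD24low replicate 2 that median was 0.16. PSMB8 (ENSG00000204264.8, chromosome 6, 32840717 to 32844703, minus strand), the subunit with chymotrypsin-like activity, had 275, 310 and 297 normalized counts in the CD24high and 281, 373 and 350 in the CD24low libraries. CD24low replicates 2 and 3 lay above every CD24high library and CD24low replicate 1 among them. Of its exon bases, 20.6% overlap PSMB8-AS1 on the other strand, which was counted at 19.1 normalized counts at most. The difference was 0.18 (SE 0.15, 95% interval -0.15 to 0.51, limma adjusted p = 0.64). It was 0.09 without CD24low replicate 2 and 0.30 without CD24low replicate 1.

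PSMB9 (ENSG00000240065.7, chromosome 6, 32844136 to 32859585, plus strand) encodes another catalytic subunit and had the fewest reads of the 9, with 20 to 55 per library. It had 29.04, 27.7 and 29.2 normalized counts in the CD24high and 33.5, 52.5 and 34.3 in the CD24low libraries. Every CD24low library lay above every CD24high library, and CD24low replicate 2 stood well above the other two. The difference of 0.44 (SE 0.27, 95% interval -0.16 to 1.04, limma adjusted p = 0.50) corresponds to 1.36-fold. It was 0.24 without CD24low replicate 2. Among low-share libraries it was 0.27 and among high-share libraries 0.51, each split with a single library of one fraction. Of its exon bases, 5.66% overlap the RNA gene PSMB8-AS1 on the same strand and 4.52% overlap PSMB8 on the other strand. Of the stretches of 50 bases in its protein-coding transcripts, 9.94% occur in PSMB8-AS1. That gene had 4.15, 11.9 and 11.7 normalized counts in the CD24high and 9.70, 19.1 and 14.7 in the CD24low libraries (difference 0.67, SE 0.47). How the counting divided reads between these genes is not given, so the level of PSMB9 is uncertain too. Groups that did not overlap, with CD24low higher, were thus seen for 2 of the 9 genes, HLA-E and PSMB9, against 10.2% of all tested genes. The reverse order was seen for 0 of the 9, against 9.32% of all tested genes.

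**Figure D2:**
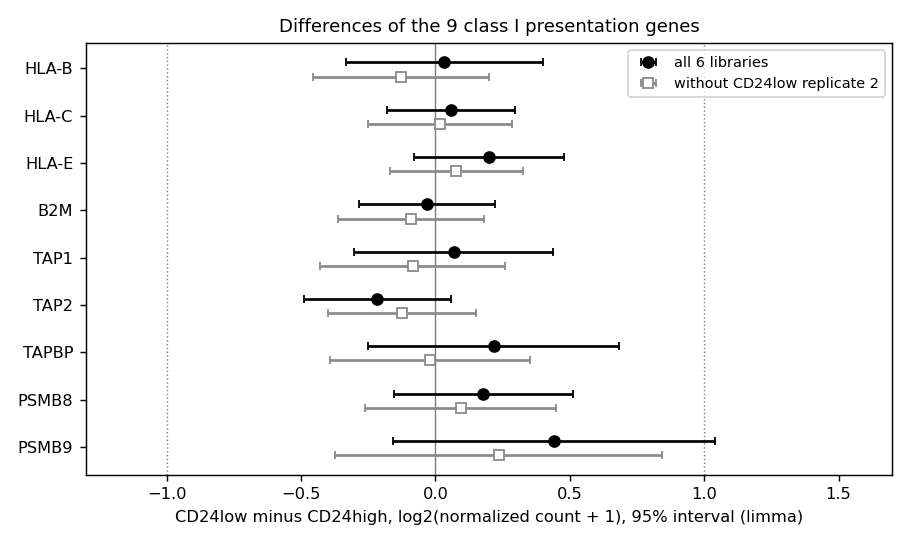
Difference of each gene, CD24low minus CD24high, in log2 (normalized count + 1) with its 95% interval from limma, for all 6 libraries (filled circles) and without CD24low replicate 2 (open squares); dotted lines mark a 2-fold change. All 9 intervals include 0, and with all libraries only that of PSMB9 crosses a dotted line.

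Scaled to length, the 9 genes covered a wide range of levels. On the scale of normalized counts per kilobase of exon, averaged over the 6 libraries, HLA-C had 859, B2M 697, HLA-E 499.5, TAP2 222, TAPBP 175, HLA-B 136, PSMB8 105, TAP1 99.1 and PSMB9 11.2. The ranges over libraries did not overlap between HLA-C and B2M, between B2M and HLA-E, between HLA-E and TAP2, or between TAP1 and PSMB9. Neighbours from TAP2 down to TAP1 overlapped in range, so their order is not resolved. HLA-C lay at percentile 93.1 of the levels per kilobase of all tested genes, B2M at 91.5 and HLA-E at 88.1, while PSMB9 lay at 12.6. Exon length here is the union over all annotated transcripts of a gene, which lowers the level of a gene with long unused exons. It was 6079 bases for B2M, 2507 for HLA-C and 3072 for PSMB9. Their protein-coding transcripts held 2375, 1637 and 905 different stretches of 50 bases, respectively. The order of HLA-C and B2M and the level of PSMB9 therefore depend on the length used.

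Within-library ratios, which do not depend on how libraries were scaled, were compared for 4 pairs of genes with two-sided exact permutation tests, whose smallest possible p with 3 against 3 libraries is 0.1. PSMB8 takes the place of the constitutive subunit PSMB5, and the log2 ratio of PSMB8 to PSMB5 was -2.80 ± 0.14 (SD, n = 3) in CD24high and -2.79 ± 0.22 in CD24low cells, with an exact p of 1. PSMB9 takes the place of PSMB6, and their log2 ratio was -5.55 ± 0.17 and -5.26 ± 0.47 (n = 3 each, exact p = 0.5). The highest of those ratios was -4.71 in CD24low replicate 2, and the other 5 libraries ranged from -5.73 to -5.38. The log2 ratio of TAP1 to TAP2 was -1.72 ± 0.29 and -1.44 ± 0.42 (n = 3 each, exact p = 0.6). That of HLA-B to HLA-C was -2.37 ± 0.03 and -2.39 ± 0.21 (n = 3 each, exact p = 1). All 4 ratios had groups that overlapped, and the p adjusted over the 4 exact tests was 1 for each.

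One CD24low library stood at an end of the range for most of the 9 genes. CD24low replicate 2 was the highest of the 6 libraries for 7 of the 9 genes, while it was the highest for 23.7% of all tested genes. It was the lowest for TAP2, and for 26.3% of all tested genes. It thus stood at an end for 8 of the 9 genes, and for 49.9% of all tested genes, while B2M was the 1 member for which it stood at neither end. Against the CD24high mean it lay 0.85 higher for PSMB9, 0.69 for TAPBP, 0.45 for HLA-E and 0.38 for TAP1 on the log2 scale, and 0.40 lower (-0.40) for TAP2. CD24low replicate 1 was the lowest library for HLA-B, HLA-C and B2M. The SD was larger in CD24low than in CD24high cells for 9 of the 9 genes, against 46.9% of all tested genes. With CD24low replicate 2 left out it was larger for 4. That comparison has fewer CD24low than CD24high libraries, and its share over all tested genes was not computed. Without that library the median difference of the 9 was -0.02 and the smallest limma adjusted p among them 0.80.

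**Figure D3:**
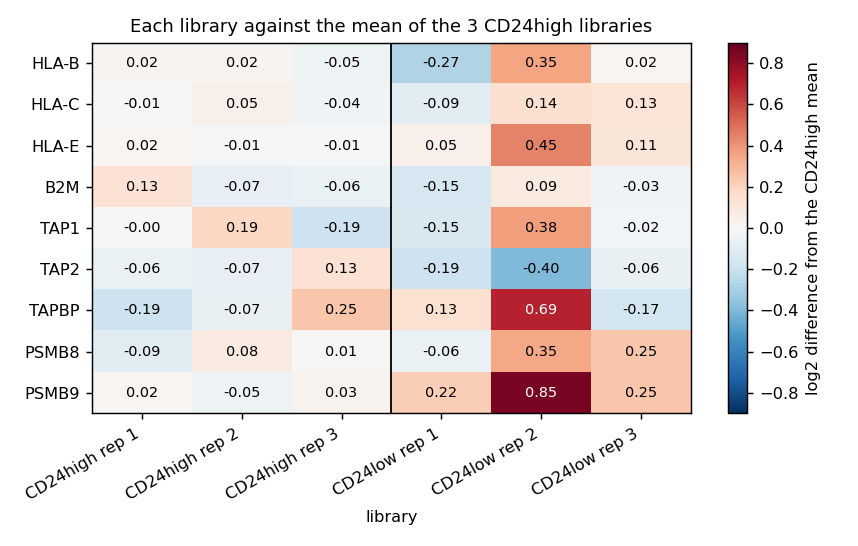
Log2 difference of each library (columns) from the mean of the 3 CD24high libraries for each of the 9 genes (rows), with red for higher and blue for lower values. The column of CD24low replicate 2 holds the largest values, from 0.85 for PSMB9 to -0.40 for TAP2, and the CD24high columns stay between -0.19 and 0.25.

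CD24low replicate 2 also stood apart in mesenchymal marker RNA, and less or not at all in the other measures given here. The summed level of 8 mesenchymal markers was 3746 to 7435 normalized counts in CD24high libraries against 31393, 57810 and 16026 in the CD24low libraries. Among these, DCN, which encodes the matrix proteoglycan decorin, had 146, 325 and 10.2 normalized counts in the CD24high against 985, 3704 and 846 in the CD24low libraries (difference 4.16, SE 1.05, limma adjusted p = 0.16). The collagen gene COL1A1 had 18.3, 29.6 and 38.0 against 58.2, 110 and 27.4, so that both were highest in CD24low replicate 2. The fibroblast collagen gene COL1A2 reached at most 0.83 and COL3A1 at most 9.55 normalized counts. FN1 and VIM made up most of the mesenchymal sum. FN1 had 3621, 4167 and 2313 normalized counts in CD24high against 18455, 39759 and 10020 in CD24low libraries. VIM had 3456, 2845 and 1337 against 11643.5, 13918 and 5013. Of the 8 markers 5 were tested, and limma called 0. DESeq2, which called 2.51% of all genes, called FN1 (adjusted p = 0.0012), VIM (0.0090) and ZEB1 (0.00015) higher and 0 lower. The summed level of 8 breast epithelial markers was 99599 to 127101 in CD24high and 74674, 69471 and 104004 in CD24low libraries, so that the library highest for 7 of the 9 genes had the most mesenchymal and the least epithelial marker RNA. The part of this in the class I values was not tested. Of 8 leukocyte markers, the T cell gene CD3E, the B cell gene MS4A1 and FCGR3A were at 0 throughout; a count of 0 allows 2.49 normalized counts in the deepest and 4.38 in the shallowest library, by counting error only. PTPRC, the pan-leukocyte marker, had at most 2 reads, and the summed list, mostly CD14 and CD68, ran from 110 to 143 in CD24high and from 141 to 243 in CD24low libraries. The endothelial markers PECAM1, VWF, CDH5 and KDR summed to 87.1 to 396 in CD24high and 105 to 342 in CD24low libraries. Nearly all of this was PECAM1, while VWF, CDH5 and KDR reached at most 0.96, 4.38 and 11.7 normalized counts. Recovered reads per library ran from 16691162 to 27293177. Genes of rRNA type took 1.30% to 10.2% of reads, above 5% in CD24high replicate 3 and CD24low replicates 1 and 2. Differences within the low-share libraries thus rest on CD24low replicate 3 alone for its fraction. Those within the high-share libraries rest on CD24high replicate 3 alone for its fraction. The median of the 9 genes was 0.0017 within the low-share and 0.13 within the high-share libraries, which include CD24low replicate 2. Over all tested genes these medians were 0.0021 and 0.0053. Of the 9 genes, 4 kept their sign between the splits, and the share of all tested genes that did so was not computed.

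The remaining steps of the pathway were read from gene lists. In limma 0 genes of any of these lists passed the adjusted threshold. Of 6 genes for peptide trimming and loading all were tested, and the median difference was 0.03, with values from -0.05 to 0.11. The chaperone PDIA3 (0.11, SE 0.11) and calreticulin, CALR (0.11, SE 0.12), had the smallest p of that list. Among 6 genes of the third immunoproteasome subunit, the PA28 activator and assembly the median was 0.05; PSME1, a subunit of the activator, had a difference of 0.28 (SE 0.14, limma adjusted p = 0.43) and PSME3 one of -0.10 (SE 0.13), or 0.03 without CD24low replicate 2. The 14 genes of the 20S core had a median of 0.05, led by PSMB4 (0.22, SE 0.11) and PSMB5 (0.18, SE 0.11), whose groups did not overlap. Without CD24low replicate 2 the medians of these 3 lists were 0.01, 0.07 and 0.12.

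Transcription factors of class I genes and the interferon receptors were measured as well. Of 13 factors, 0 passed and the median was 0.13, or 0.06 without CD24low replicate 2. RFX5, which binds the X1 box, had 318, 381 and 272 normalized counts in the CD24high against 345, 670 and 359 in CD24low libraries. CD24low replicate 2 again stood far above the rest. The difference of RFX5 was 0.44 (SE 0.25, limma adjusted p = 0.47) and 0.13 without that library. NFYA, which binds the Y box, had a difference of 0.28 (SE 0.15). The 11 tested genes of interferon receptors and their kinases had a median of 0.36, or 0.17 without CD24low replicate 2, which was the highest library for 8 of them. IFNAR2, a type I interferon receptor chain, differed by 0.62 (SE 0.23, limma adjusted p = 0.29) and SOCS3, a feedback inhibitor, by 0.74 (SE 0.27, limma adjusted p = 0.30), or by 0.47 without CD24low replicate 2.

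Other interferon-stimulated genes included a single one with a DESeq2 call. Of 18 such genes 15 were tested, with a median of 0.37, and 0.15 without CD24low replicate 2, which was the highest library for 13. IFI6, an interferon-induced membrane protein, had 8.30, 6.92 and 8.77 normalized counts in the CD24high against 33.5, 78.3 and 25.5 in CD24low libraries, with no overlap. Its difference was 2.22 (SE 0.42), with an adjusted p of 0.088 in limma and 0.0020 in DESeq2. OAS1, an antiviral sensor, differed by -0.47 (SE 0.19, limma adjusted p = 0.32).

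Related surface molecules gave no call either. Among 5 tested non-classical and class I-like genes the median was 0.29, or 0.03 without CD24low replicate 2. HLA-G, a ligand of inhibitory receptors with part of its sequence shared with HLA-E, had 4.15, 9.88 and 5.84 normalized counts in the CD24high against 11.5, 18.1 and 12.7 in CD24low libraries (difference 1.03, SE 0.42, limma adjusted p = 0.33). PROCR differed by 0.29 (SE 0.22), or by 0.09 without CD24low replicate 2. Of 10 class II presentation genes, which professional antigen-presenting cells use, 0 reached the limit for testing and 4 had no read in any library. Ligands of the NKG2D receptor had a median of -0.14 over 7 tested genes; RAET1L had 20.7, 21.7 and 19.0 normalized counts in CD24high libraries against 11.5, 1.91 and 7.84 in CD24low libraries (difference -1.65, SE 0.52, limma adjusted p = 0.23), and MICA differed by -0.15 (SE 0.14). Without CD24low replicate 2 these differences were -1.03 and -0.02. Surface checkpoint ligands had a median of -0.14 over 7 tested genes, or -0.08 without CD24low replicate 2. CD274, encoding PD-L1, had 298, 189 and 137 normalized counts in the CD24high against 155, 74.5 and 119 in CD24low libraries, which overlapped (difference -0.83, SE 0.32, limma adjusted p = 0.31; -0.54 without CD24low replicate 2), and NECTIN2 differed by 0.23 (SE 0.18).

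**Figure D4:**
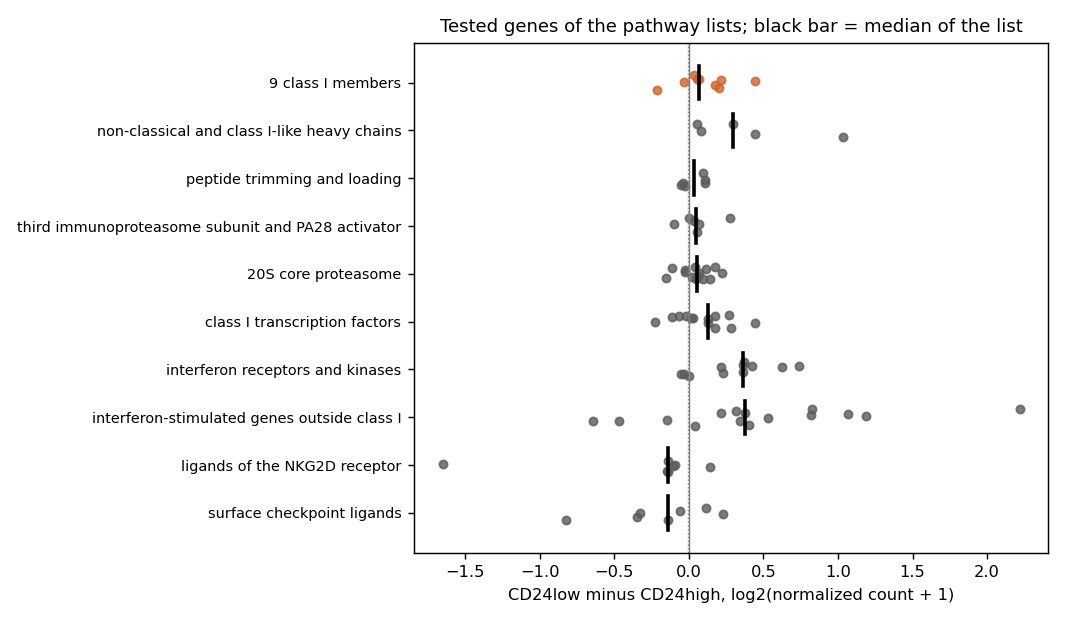
Difference of each tested gene of the 9 and of the pathway lists, CD24low minus CD24high in log2 (normalized count + 1), by list, with the lists of cell type markers left out; the black bar is the median of the list, the solid line 0 and the dotted line the median of all tested genes. The 9 class I genes (orange) lie between -0.22 and 0.44, and the gene farthest to the right among those plotted is IFI6 at 2.22.

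The genes whose pattern over the 6 libraries was most like the mean standardized pattern of the 9 were CYB5D2 (r = 0.99), YIPF1 (0.98), FBLIM1 (0.98), IFT81 (0.98) and TFDP2 (0.98), among 11462 genes that averaged 100 or more normalized counts. All 5 were highest in CD24low replicate 2 and lowest in CD24low replicate 1, as the mean pattern is. CYB5D2 had 92.9, 101.8 and 92.1 normalized counts in the CD24high against 85.5, 147 and 107 in CD24low libraries. With 6 libraries, in each of which all genes share the depth and scaling of that library, such a likeness is a description only. Among the 9 themselves, HLA-B followed the mean of the other 8 most closely (r = 0.94 over 6 libraries), and TAP2 ran against it (r = -0.73).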

How the data were processed

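RNA-seq libraries of sorted MCF10AT1 cells, 3 per fraction, were grouped by their titles. The authors deposited a signal for every gene, namely its read count over a DESeq2 size factor for the library; the submitters' processing notes name DESeq2, STAR 2.5.2, R 3.5.0 and hg38, and libraries were strand-specific and depleted of rRNA, per the labels' protocols. Neither the read counter nor its strand setting is given in the sources used here. Of the identifiers, 58261 matched GENCODE 29. Each column held whole multiples of 1 step (0.830 to 1.46 normalized counts per read), and 100% of values came out whole within 0.1 reads. Limma 3.58.1 with a mean-variance trend was run on log2 (normalized count + 1), which understates changes of low genes, in R 4.3.3. It covered genes with a mean of at least 10; edgeR 4.0.16, which called 0 genes, and DESeq2 1.42.0, which called 402, were run on the recovered reads. All were tested on simulated data. Named list genes are those past limma's adjusted p, up to 3 per list, and where none passed, 2 by smallest p; the 5 genes with the highest Pearson r to the mean pattern were added. AL669918.1, PSMB8-AS1, CD3E, MS4A1, FCGR3A, PTPRC, CD14, CD68, DCN, COL1A1, COL1A2, COL3A1, FN1, VIM, ZEB1, PECAM1, VWF, CDH5 and KDR were named outside this rule, after their values were seen. A listed leukocyte marker is not reported here. The members and lists were chosen with earlier results of these data known. Floors for a count of 0 were 3 reads per library. No replicates were alike within sampling noise. Alternatives were other pseudocounts, filters, scalings and tests, a replicate block, the split at an rRNA share of 5% as a covariate and leaving out each library.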

Additional observations from a re-analysis of the deposited data

How the results depend on the processing

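None of the 9 genes was called under any of the 17 alternatives; their smallest adjusted p was 0.33, for TAP2 without CD24low replicate 3. The number of genes called over the whole table was 0 in limma but 402 with DESeq2, 164 with no filter and 716 with the replicate block, and 0 to 366 with 1 library left out, highest without CD24low replicate 3. The column names number both fractions R1 to R3. Deviations of same-numbered libraries from their group means correlated at 0.27, 0.30 and 0.05 for replicates 1, 2 and 3. Pairs of unlike number ran from -0.26 to 0.075. CD24low replicates 1 and 2 correlated best with the CD24high library of their own number. CD24low replicate 3 correlated better with CD24high replicate 1 (0.075). Taken from the other side, each CD24high library correlated best with the CD24low library of its own number. For CD24high replicate 3 the margin was small, at 0.051 against 0.035 with CD24low replicate 2. Pairing by number is thus not shown, nor is it excluded, and the main tests treated the libraries as unpaired. The block called 0 of the 9. The median of the 9 ran from 0.04 to 0.08 under other settings and from -0.02 to 0.18 with 1 library left out. With 1 library left out, HLA-B ran from -0.13 to 0.18, TAP1 from -0.085 to 0.18, TAPBP from -0.020 to 0.41 and B2M from -0.091 to 0.033, each changing sign, and the ratios of PSMB8 to PSMB5 (-0.11 to 0.11) and of HLA-B to HLA-C (-0.15 to 0.051) did too. PSMB9 fell below the filter at a mean of 50. At 20 to 55 reads per library, counting error limits PSMB9 most.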
